A study of Homo sapiens with 6 samples.

Results

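Cluster 3 of the A375 melanoma cells is 1 of 8 expression clusters that the authors assigned to part of their dabrafenib-adapted and untreated A375 cells. It held 888 of the 5059 A375 cells in the authors' cell table (17.6%), out of 8505 A375 cells with counts, and its members were taken by the cluster number given for each cell name. A375 is a human melanoma line that carries a mutant, constantly active BRAF kinase, and dabrafenib is an inhibitor of that kinase. The 8 adapted populations were obtained by raising the dose stepwise and were held at 30, 60, 125, 250 and 500 nM and at 1, 2 and 4 µM dabrafenib, and untreated A375 cells were the control. All of these cells carry the BRAF mutation. Each population was 1 culture, labelled with its own cell tag, pooled with the others and read as 3′ single-cell libraries in 2 sequencing runs that the cell names do not tell apart. With 1 culture per population there is no replicate and no test between conditions. Intervals (95%) stand in parentheses after a value and reflect counting error alone.

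The neural crest is the embryonic cell population from which melanocytes and the glia of peripheral nerves arise. Melanoma cells can move between a pigmented state, driven by the transcription factor MITF, and states that carry neural crest or glial genes such as NGFR, the low-affinity nerve growth factor receptor. Such NGFR-rich states are known from melanoma cells kept in BRAF inhibitors. DCT, dopachrome tautomerase, is an enzyme of melanin synthesis that is also an early marker of the melanoblast lineage, and LUM, lumican, is a proteoglycan of the collagen matrix.

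Cluster 3 cells had a median of 5915 UMIs (unique molecular identifiers, each standing for 1 captured transcript), against 8893 in the other 4171 listed cells, and their counts summed to 6696157 and 39110043 UMIs. Levels are given as UMIs of a gene per 1000000 UMIs of the group (CPM). The highest mitochondrial share of a cluster 3 cell was 18.8%. UMI totals above 2 times the median of the cell's own population occurred in 34 of 888 cluster 3 cells (3.83%) and in 72 of the other cells (1.73%), and whether such barcodes hold more than 1 cell was not tested. No barcode occurred in 2 A375 populations, and 27 barcodes occurred in both the A375 pool and the pool of the second line of the study. The listed cells carried few transcripts of dividing cells: the 40 S-phase genes summed to 592 CPM in cluster 3 and 587 CPM in the other listed cells, against 2285 CPM in the 30 nM cells that stand outside the cell table. How the cells of the table were chosen is not given in the sources used here.

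Cluster 3 took up most of the 30 nM population and was not confined to it. Of the listed cells, 15 of 442 untreated cells were in cluster 3 (3.39%, 1.91 to 5.54), 373 of 478 at 30 nM (78.0%, 74.0 to 81.7), 260 of 906 at 60 nM (28.7%, 25.8 to 31.8), 30 of 306 at 125 nM (9.80%, 6.71 to 13.7) and 24 of 733 at 250 nM (3.27%, 2.11 to 4.83). At the upper doses it held 52 of 493 cells at 500 nM (10.5%, 7.98 to 13.6), 50 of 605 at 1 µM (8.26%, 6.20 to 10.8), 48 of 641 at 2 µM (7.49%, 5.57 to 9.81) and 36 of 455 at 4 µM (7.91%, 5.60 to 10.8). The 30 nM cells made up 42.0% of the cluster and the 60 nM cells 29.3%. The share was highest at 30 nM, lower at 60 nM, and no higher than 13.7% at the upper end of the interval in any other population. These shares describe how the authors' clustering divided the cells. With 1 culture per population no difference between populations was tested.

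**Figure D1:**
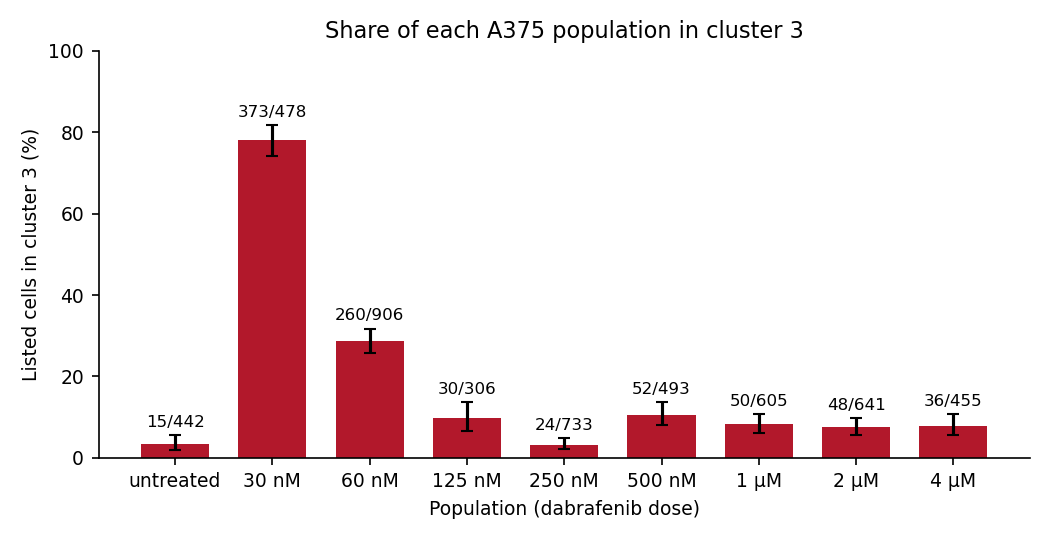
Bars give the percent of each population's listed cells that were in cluster 3, by dabrafenib dose, with exact binomial 95% intervals and the cell counts above. The 30 nM population stands at 78.0%, the 60 nM population at 28.7% and the other 7 between 3.27% and 10.5%.

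Of the 3 genes proposed to mark the cluster, NGFR and DCT set it apart from every other cluster and LUM did not. NGFR (chr17:49495293-49515017, plus strand, GRCh38) stood at 82.3 CPM in cluster 3, against 1.21, 3.70, 2.43, 0.406, 0.699, 1.20 and 0.679 CPM in clusters 0, 1, 2, 4, 5, 6 and 7. DCT (chr13:94436808-94479682, minus strand) stood at 408 CPM in cluster 3, against 1.82, 10.7, 46.6, 1.22, 4.19, 5.23 and 2.85 CPM in the same clusters. For both genes cluster 3 was higher than each of the other 7, and for DCT cluster 2 came next. LUM (chr12:91102629-91111831, minus strand) stood at 44.5 CPM in cluster 3, against 4.86, 2.78, 6.27, 145, 97.1, 16.8 and 40.4 CPM. LUM was thus higher in clusters 4 and 5 than in cluster 3, which goes against it as a marker of the cluster. When the 30 nM cells were left out of cluster 3, the log2 ratio to all other listed cells was 3.74 in place of 4.91 for NGFR, 5.21 in place of 4.82 for DCT and 0.02 in place of 0.73 for LUM. Because the clusters were made from the same counts, these differences describe the cluster and are no test of it. The cells are called cluster 3 here, and not a neural crest-like 30 nM state, since 1 of the 3 markers failed and most of the cells came from other doses.

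Not every cell of the cluster carried a detected marker transcript. To compare cells of unequal depth, each was thinned to 3038 UMIs, which left 800 cells of cluster 3 and 4093 other cells and dropped 88 and 78 shallower ones. An NGFR UMI was then seen in 20.8% of cluster 3 cells (18.0 to 23.7), against 0.366% of the other cells (0.205 to 0.604). A DCT UMI was seen in 43.2% of cluster 3 cells (39.8 to 46.8), against 2.44% of the other cells (1.99 to 2.96), and a LUM UMI in 8.62% (6.77 to 10.8), against 5.81% (5.12 to 6.58). Without thinning, at median depths of 5915 and 8893 UMIs, the shares were 31.8% against 1.34% for NGFR, 54.2% against 5.23% for DCT and 15.9% against 14.2% for LUM. In cluster 4, where both genes were at their lowest CPM, 0.353% of thinned cells had an NGFR UMI and 0.353% a DCT UMI (0.00895 to 1.95 for each). NGFR or DCT or both were seen in 52.4% of the thinned cluster 3 cells and both in 11.6%, against 8.97% if the detections were independent. The share with NGFR differed by population. At 30 nM 62 of 350 thinned cells had NGFR with DCT and 58 had NGFR without it. These were 18 and 6 of 217 at 60 nM, 3 and 7 of 49 at 500 nM and 0 and 1 of 45 at 1 µM. Transcripts were unevenly spread: the 89 cells with the most DCT UMIs held 55.0% of all DCT UMIs of the cluster, and 1 cell held 59.

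Both markers stayed higher in cluster 3 within each population, with levels that moved in different ways along the doses. NGFR in cluster 3 stood at 26.7 CPM in untreated cells, 146 CPM at 30 nM, 41.5 CPM at 60 nM, 33.3 CPM at 125 nM, 43.9 CPM at 250 nM, 60.1 CPM at 500 nM, 24.7 CPM at 1 µM, 20.4 CPM at 2 µM and 19.4 CPM at 4 µM. In the other clusters of the same populations NGFR lay between 0.673 CPM, at 250 nM, and 11.3 CPM, at 30 nM. The 30 nM cells were thus highest for NGFR inside and outside cluster 3.

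DCT in cluster 3 stood at 62.4 CPM in untreated cells, 229 CPM at 30 nM, 789 CPM at 60 nM, 759 CPM at 125 nM, 461 CPM at 250 nM, 269 CPM at 500 nM, 400 CPM at 1 µM, 366 CPM at 2 µM and 400 CPM at 4 µM. In the other clusters DCT lay between 4.98 CPM, in untreated cells, and 40.9 CPM, at 30 nM. DCT was highest in cluster 3 cells of 60 and 125 nM, where NGFR was not, so that the 2 markers were highest in different populations.

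LUM in cluster 3 stood at 40.1 CPM in untreated cells, 69.1 CPM at 30 nM, 40.9 CPM at 60 nM and between 11.1 and 27.5 CPM from 125 nM to 4 µM. Within the 30 nM population LUM was at 69.1 CPM in cluster 3 and 71.4 CPM in the other clusters, a ratio of 0.968 (0.744 to 1.27). At that dose LUM did not set cluster 3 apart from the other clusters.

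**Figure D2:**
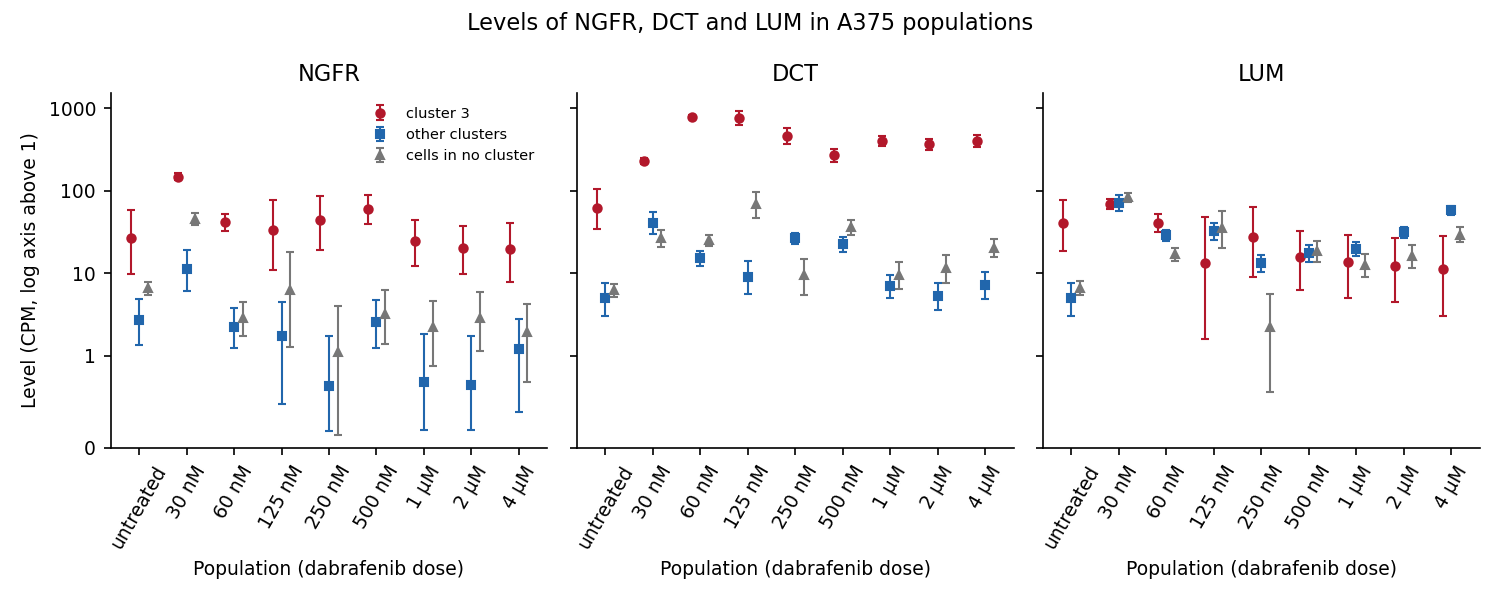
Levels of NGFR, DCT and LUM in CPM (log axis above 1) by dabrafenib dose, for cluster 3, for the other clusters and for cells outside the authors' cell table, with exact Poisson 95% intervals. NGFR and DCT lie higher in cluster 3 than in the other clusters in all 9 populations, whereas LUM overlaps at 30 nM, at 69.1 CPM in cluster 3 and 71.4 CPM in the other clusters.

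Across all genes, cluster 3 was compared with all other listed cells on the scale of log2(CPM + 1). A gene counted as measured with at least 10 CPM and 20 UMIs on the higher side, and was counted when the ratio on that scale reached 2-fold. No p-value goes with these counts. In cluster 3, 251 of 9636 measured genes were higher by this rule (2.60%) and 174 were lower (1.81%). The count of lower genes depended on the make-up of the groups. It was 61, with 305 higher, when the populations of the other cells were weighted equally, 114 without the 30 nM cells of cluster 3, 403 with those cells alone, and 363, with 349 higher, as a mean over cells. Without the 15 untreated cells of the cluster 259 genes were higher and 194 lower. The median log2 ratio over all measured genes was 0.04. The genes named next are the 15 highest and 15 lowest among those at 25 CPM or more.

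The highest genes after NGFR (46.6-fold, 36.3 to 60.8) and DCT (30.2-fold, 27.5 to 33.2) included secreted, membrane and developmental proteins. CXCL14, a chemokine, stood at 33.3 CPM in cluster 3 and 0.690 CPM in the other cells, a 48.2-fold difference (32.3 to 74.8). CITED1, a transcriptional co-regulator expressed in pigment cells, stood at 42.7 CPM in cluster 3 and 2.86 CPM in the other cells. NOV, a matricellular growth regulator also named CCN3, stood at 144 CPM in cluster 3 and 11.8 CPM in the other cells, and CRYAB, a small heat shock protein found in glia, at 31.7 CPM in cluster 3 and 2.58 CPM in the other cells. CD36, a scavenger receptor that takes up fatty acids, stood at 29.0 CPM in cluster 3 and 2.51 CPM in the other cells, and FOXD3, a transcription factor of the premigratory neural crest, at 63.5 CPM in cluster 3 and 8.87 CPM in the other cells. HDAC9, a class IIa histone deacetylase, stood at 196 CPM in cluster 3 and 27.7 CPM in the other cells. The remaining higher genes were OTOGL, NKAIN3, TMEM47, SCUBE3, TMPRSS5 and OLFML2A. By population the ratio alone was counted, without the minimum of 10 CPM and 20 UMIs, and some of these ratios rest on few UMIs. Of the 15, NGFR, DCT, CITED1 and NOV were at least 2-fold higher in cluster 3 in all 9 populations, CXCL14 in 8 with no UMI on either side in untreated cells, and CD36, CRYAB, OTOGL and OLFML2A in 7. CRYAB was at least 2-fold lower in 2 populations, and CD36, OTOGL, OLFML2A, NKAIN3, FOXD3 and SCUBE3 in 1 each, where cluster 3 held 0 UMIs of the gene, or 1 for FOXD3.

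Several of the lowest genes in cluster 3 were ones that clusters 0 to 2 held at a high level. SLC24A3, a sodium, calcium and potassium exchanger, stood at 13.0 CPM in cluster 3, against 163, 362 and 45.0 CPM in clusters 0, 1 and 2 and at most 3.49 CPM in clusters 4 to 7. CEMIP, which takes part in the breakdown of hyaluronan, stood at 9.41 CPM, against 226, 226 and 24.0 CPM in clusters 0, 1 and 2 and at most 6.29 CPM in clusters 4 to 7. HMCN1, a matrix protein, stood at 110 CPM, against 621, 934 and 824 CPM in clusters 0, 1 and 2 and at most 35.6 CPM in clusters 4 to 7. Cluster 3 thus lay between 2 sets of clusters for these genes, below clusters 0 to 2 and above clusters 4 to 7. DLGAP1, TESC, HAPLN1, VGF, SLC24A2, SYTL5, ABHD17C, PDE3A, NPAS2, FAM84B, C4orf19 and SPRY4 made up the rest of the 15. Their direction varied across populations, counted on the ratio alone without the minimum of CPM and UMIs. HAPLN1, a link protein of the hyaluronan matrix, was at least 2-fold lower in cluster 3 in 6 of 9 populations and not 2-fold higher in any, while SPRY4 was 2-fold lower in 5 and 2-fold higher in 3. Cluster 0 was mainly untreated cells (343 of 394) and cluster 1 held 409 cells of 60 nM among 751.

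**Figure D3:**
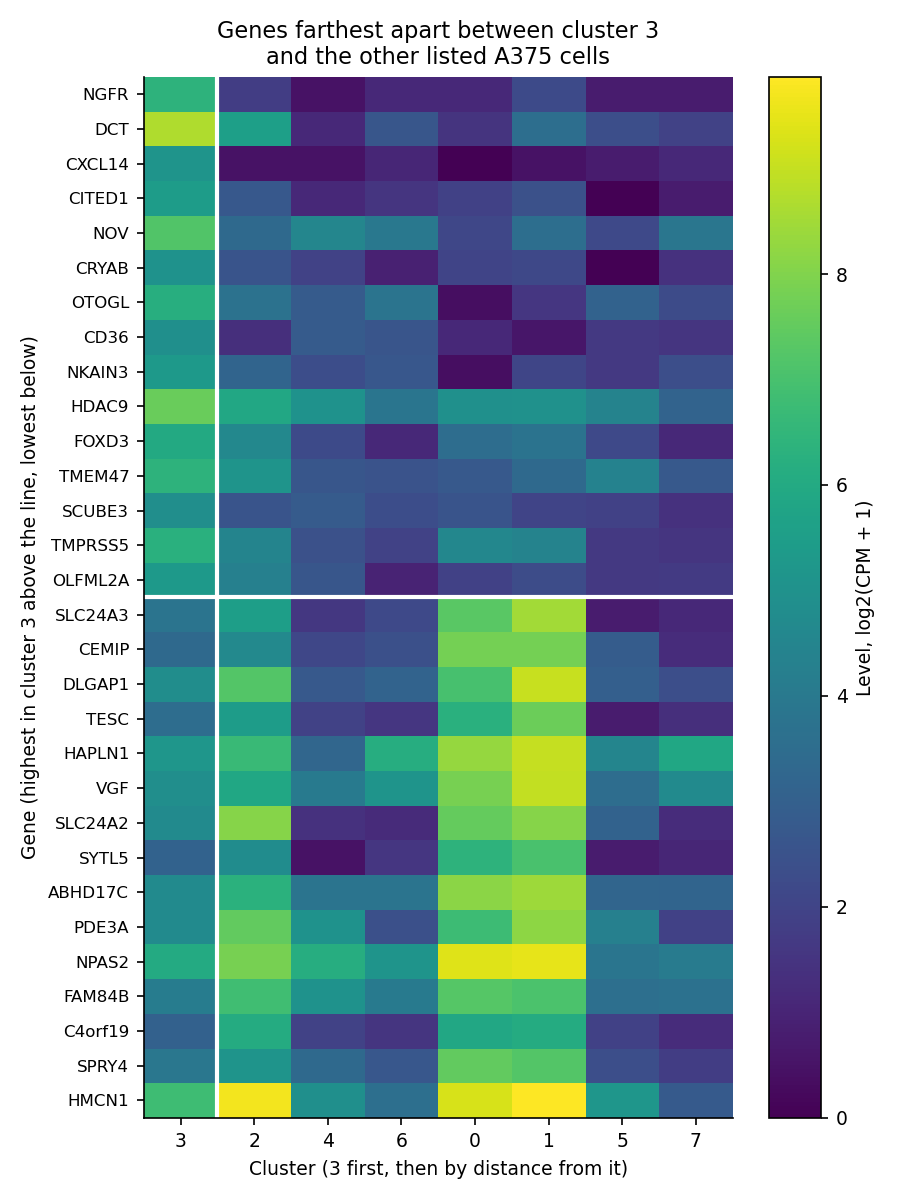
Levels as log2(CPM + 1) of the 15 highest (upper block) and 15 lowest genes (lower block) of cluster 3, with cluster 3 in the first column and the other clusters by their distance from it. The upper genes are brightest in the first column, as for NGFR at 82.3 CPM against at most 3.70 CPM elsewhere, and the lower genes, such as HMCN1 at 110 CPM against 621 and 934 CPM, are brighter in clusters 0 and 1.

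Promoter sequences show what the higher genes carry ahead of their start. The windows, 250 bases before to 50 after each start, come from RefSeq on GRCh38.p14 and are written along the gene's strand. Searched on both strands were the SOX motif ACAAAG, the E-box CATGTG that MITF is known to bind, and the Y box GATTGG that belongs to class II histocompatibility promoters. They occurred in 16.1%, 11.1% and 15.1% of all 35116 windows. Matches are in capitals below, and they describe letters only. DCT and FOXD3 are shown as a pigment gene and a neural crest regulator among the 15 highest genes that have a window, at chr13:94479633-94479932 (minus strand) and chr1:63322317-63322616 (plus strand, upstream of the GENCODE start of the gene).
DCT: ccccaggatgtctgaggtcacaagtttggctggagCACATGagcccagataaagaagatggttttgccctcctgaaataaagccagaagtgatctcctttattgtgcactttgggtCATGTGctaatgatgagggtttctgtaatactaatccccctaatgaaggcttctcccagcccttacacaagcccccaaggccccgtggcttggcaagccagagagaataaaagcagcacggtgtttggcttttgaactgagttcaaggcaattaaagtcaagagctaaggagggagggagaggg
FOXD3: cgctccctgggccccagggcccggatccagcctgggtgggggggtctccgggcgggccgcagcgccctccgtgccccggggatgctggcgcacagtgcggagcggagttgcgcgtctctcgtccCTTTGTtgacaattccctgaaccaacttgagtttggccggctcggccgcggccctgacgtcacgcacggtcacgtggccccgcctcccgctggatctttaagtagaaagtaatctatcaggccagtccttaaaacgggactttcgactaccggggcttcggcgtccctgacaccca
The DCT window holds the E-box in both orientations, at 134 and 215 bases before the start, and the FOXD3 window holds the SOX motif on the opposite strand at 126 bases. Of the 15 highest genes 10 had a window, with 24 windows in all because of alternative starts. The E-box was in 6 of the 24 windows, from 6 genes, and the SOX motif in 3, from 3 genes. The Y box was in 2 overlapping windows of 1 gene, HDAC9.

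Of the neural crest regulators, transcription factors that set up and maintain the crest, 5 of 22 measured members were at least 2-fold higher in cluster 3 and 0 lower, against 2.60% of all measured genes higher and 1.81% lower. The list's sum was 5063 CPM in cluster 3, against 5956, 6686 and 5174 CPM in clusters 0, 1 and 2 and 2074 to 2880 CPM in clusters 4 to 7. Their median log2 ratio was 0.22, and that over all genes 0.04. The 5 were FOXD3, ETS1, SOX6, ZEB2 and ID3, of which FOXD3 reached the minimum of 10 CPM in cluster 3 alone. ZEB2, a repressor of epithelial genes with a role in melanocytes, stood at 338 CPM in cluster 3 and 104 CPM in the other cells, and SOX6 at 115 CPM in cluster 3 and 38.7 CPM in the other cells.

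SOX10, which neural crest, melanocytes and glia require, stood at 176 CPM in cluster 3, below clusters 0, 1 and 2 at 287, 264 and 226 CPM and above clusters 4 to 7 at 5.56 to 16.7 CPM. In the other clusters SOX10 was lower at high doses, at 16.8, 14.2 and 17.3 CPM at 1, 2 and 4 µM, while cluster 3 cells of those populations had 117, 135 and 158 CPM. MITF stood at 220 CPM in cluster 3 and 113 CPM in the other cells, 1.95-fold (1.83 to 2.07), which is under the 2-fold limit, and cluster 4 was close to it at 214 CPM. BRAF, the drug target, stood at 124 CPM in cluster 3 and 116 CPM in the other cells.

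Of 13 measured stem and glial genes of the crest 7 were at least 2-fold higher and 1 lower, against 2.60% and 1.81% of all measured genes, with a median log2 ratio of 1.23. The list's sum was 2918 CPM in cluster 3, near the 2630, 2734 and 3009 CPM of clusters 0, 1 and 2, against 868 to 1502 CPM in clusters 4 to 7. Among the higher members besides NGFR and CRYAB were PMP22, a protein of myelin, and the adhesion molecules L1CAM and CDH19. PMP22 stood at 481 CPM in cluster 3 and 102 CPM in the other cells. The lower member was RXRG, a retinoid receptor used as a marker of neural crest stem-like melanoma cells, at 9.71 CPM in cluster 3 and 25.7 CPM in the other cells. The minimum of 10 CPM was reached in cluster 3 alone by at least NGFR and CRYAB, and in the other cells alone by RXRG. The count thus describes the cluster and is no test of it. Of the neurotrophin list, NGFR alone of 11 measured members was 2-fold higher, while SORCS1 and BEX1 were lower.

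Of the pigment genes, DCT and CITED1 were higher in cluster 3, and TYR, PMEL and MLANA were near 0. Of 8 measured members 2 were at least 2-fold higher and 0 lower, against 2.60% and 1.81% of all measured genes. CITED1 reached the minimum of 10 CPM in cluster 3 alone, and DCT was proposed as a marker of the cluster, so the count is no test of it. GPNMB, a melanosome glycoprotein, stood at 212 CPM in cluster 3 and 109 CPM in the other cells, just under 2-fold. TYR, the first enzyme of melanin synthesis, was at 1.05 CPM in cluster 3 and 0.0767 CPM in the other cells, MLANA at 1.94 CPM in cluster 3 and 0.844 CPM in the other cells and PMEL at 1.94 CPM in cluster 3 and 2.53 CPM in the other cells, all below the level needed to count as measured.

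Class II histocompatibility genes, which present peptides to helper T cells and are controlled by the activator CIITA, formed the list with the highest median. All 12 were measured, 11 were at least 2-fold higher and 0 lower, and the median log2 ratio was 1.28. Of all measured genes 2.60% were higher and 1.81% lower. Their summed level was 5656 CPM in cluster 3 and 2426 CPM in the other cells. CD74, the invariant chain, stood at 1902 CPM in cluster 3 and 849 CPM in the other cells, HLA-DRA at 1386 CPM in cluster 3 and 573 CPM in the other cells and CIITA at 66.0 CPM in cluster 3 and 30.2 CPM in the other cells. The member below 2-fold on the log2(CPM + 1) scale was CTSS, a protease that cuts the invariant chain, at 10.3 CPM in cluster 3 and 4.83 CPM in the other cells. The level was shared with cluster 2: the sum was 2487, 3775 and 6340 CPM in clusters 0, 1 and 2 and 405 to 485 CPM in clusters 4 to 7. HLA-DRB1 and HLA-DRB5 are near-identical copies whose reads may be split between them.

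Within populations the class II sum was 5907 CPM in cluster 3 and 1926 CPM in the other clusters at 30 nM, and 6320 CPM in cluster 3 and 3182 CPM in the other clusters at 60 nM. At 1, 2 and 4 µM cluster 3 had 5635, 4337 and 4908 CPM, against 613, 611 and 741 CPM in the other clusters. At 250 nM the order turned, with 5256 CPM in cluster 3 and 5882 CPM in the other clusters, which were mostly cluster 2. Untreated cells had 2437 CPM in cluster 3 and 2825 CPM in the other clusters. Immune markers were low beside these values: 7 of 13 were in the count table, summing to 39.6 CPM in cluster 3 and 21.6 CPM in the other cells, and CD68, a lysosomal protein found in other cells too, made up 36.7 CPM of this in cluster 3 and 18.9 CPM in the other cells. The interferon response list had 0 of 15 measured members higher and 2 lower, against 2.60% and 1.81% of all measured genes. Class I genes had 0 of 14 either way.

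Windows of 3 class II genes are shown because 11 of the 12 genes of the list were higher: CD74 (chr5:150412861-150413160, minus strand), HLA-DPB1 (chr6:33075740-33076039, plus strand) and HLA-DMA (chr6:32953048-32953347, minus strand).
CD74: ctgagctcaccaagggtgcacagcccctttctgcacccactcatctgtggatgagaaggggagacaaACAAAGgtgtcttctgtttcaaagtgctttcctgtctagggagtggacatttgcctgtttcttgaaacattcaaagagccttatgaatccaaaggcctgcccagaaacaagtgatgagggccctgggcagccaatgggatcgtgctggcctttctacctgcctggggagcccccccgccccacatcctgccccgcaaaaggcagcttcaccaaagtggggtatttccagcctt
HLA-DPB1: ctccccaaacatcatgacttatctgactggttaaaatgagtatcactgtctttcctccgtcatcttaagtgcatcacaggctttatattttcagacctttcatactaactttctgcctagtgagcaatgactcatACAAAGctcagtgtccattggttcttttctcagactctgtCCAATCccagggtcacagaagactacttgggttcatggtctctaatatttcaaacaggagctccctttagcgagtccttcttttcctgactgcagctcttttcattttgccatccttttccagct
HLA-DMA: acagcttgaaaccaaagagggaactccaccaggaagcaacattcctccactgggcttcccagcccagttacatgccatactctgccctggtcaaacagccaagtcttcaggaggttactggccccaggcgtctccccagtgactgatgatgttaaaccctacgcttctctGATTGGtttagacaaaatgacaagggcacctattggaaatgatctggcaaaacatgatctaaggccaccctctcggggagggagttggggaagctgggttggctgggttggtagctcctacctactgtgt
The Y box is in the HLA-DPB1 window at 75 bases before the start, on the opposite strand, and in the HLA-DMA window at 80 bases. The CD74 and HLA-DPB1 windows hold the SOX motif. Of the 12 class II genes 9 had a window, 10 windows in all, and 6 of the 10 held the Y box, 2 the SOX motif and 0 the E-box.

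Genes that report the output of the MAPK pathway, the route blocked by dabrafenib, were lower where they differed. Of 18 measured members 0 were at least 2-fold higher and 5 lower, with a median log2 ratio of -0.64. Of all measured genes 2.60% were higher and 1.81% lower. The lower members were SPRY4, a feedback inhibitor, at 13.9 CPM in cluster 3 and 53.3 CPM in the other cells, the ETS factors ETV4 (11.1 CPM in cluster 3 and 30.2 CPM in the other cells) and ETV5 (22.4 CPM in cluster 3 and 50.7 CPM in the other cells), IER3 and EPHA4. The summed level of the list was 1215 CPM in cluster 3, against 2770, 3243 and 2163 CPM in clusters 0, 1 and 2 and 872 to 1259 CPM in clusters 4 to 7. Cluster 3 was close to clusters 4 to 7 in this respect. At 1, 2 and 4 µM its sum was 1473, 1315 and 1478 CPM, against 1053, 1111 and 1058 CPM in the other clusters, and at 60 nM it was 1276 CPM against 2836 CPM.

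Against all other listed cells, contractile genes of smooth muscle were lower with 1 exception among those that differed. The list's sum lay between 2 sets of clusters, at 3040 CPM in cluster 3, against 1371, 1143 and 1985 CPM in clusters 0, 1 and 2. In clusters 4 to 7 it was 6474 to 15052 CPM, highest in clusters 5 and 7. Within populations the sum was higher in cluster 3 in untreated cells and at 60, 125 and 250 nM, and lower at 30 nM and from 500 nM to 4 µM. Of 12 measured members 1 was at least 2-fold higher (CNN3) and 6 lower, with a median log2 ratio of -1.05. Of all measured genes 2.60% were higher and 1.81% lower. TAGLN, an actin-binding protein, stood at 413 CPM in cluster 3 and 1383 CPM in the other cells, and ACTA2 at 105 CPM in cluster 3 and 350 CPM in the other cells. Against cluster 2 the same list had 4 members higher and 0 lower. TAGLN in cluster 3 was at 186 CPM at 30 nM and at 2228 CPM at 4 µM, so that the doses differed within the cluster.

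Other lists held few genes past 2-fold, where 2.60% of all measured genes were higher and 1.81% lower. Collagens and other matrix genes had 4 of 28 measured members higher, among them NOV and COL8A1 (330 CPM in cluster 3 and 85.5 CPM in the other cells), and 1 lower, POSTN. PRELP was higher among the small leucine-rich proteoglycans, at 17.2 CPM in cluster 3 and 2.40 CPM in the other cells. Immediate early factors had 0 of 16 higher and 2 lower, and lipid uptake genes 2 of 17 higher, CD36 and FABP7. PRELP and CD36 reached the minimum of 10 CPM in cluster 3 alone. The integrin ITGA2 stood at 267 CPM in cluster 3 and 75.9 CPM in the other cells. Its list, receptor kinases and dedifferentiation genes, went the other way in sum, at 2064 CPM in cluster 3 and 2814 CPM in the other cells. Iron storage, NRF2, lysosomal, p53, S-phase and G2 and M-phase lists had 0 members at 2-fold either way. Markers of other cells had few measured members: 1 of 9 endothelial, 4 of 11 fibroblast (FAP higher, at 29.9 CPM in cluster 3 and 14.3 CPM in the other cells), 3 of 9 epithelial (KRT18 lower, at 298 CPM in cluster 3 and 644 CPM in the other cells), 4 of 12 neuronal and 0 of 7 erythroid. The fibroblast collagen COL1A2 and the neuronal genes STMN2 and NEFM had 0 UMIs in cluster 3, where 3 counts of the total stand for 0.448 CPM.

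**Figure D4:**
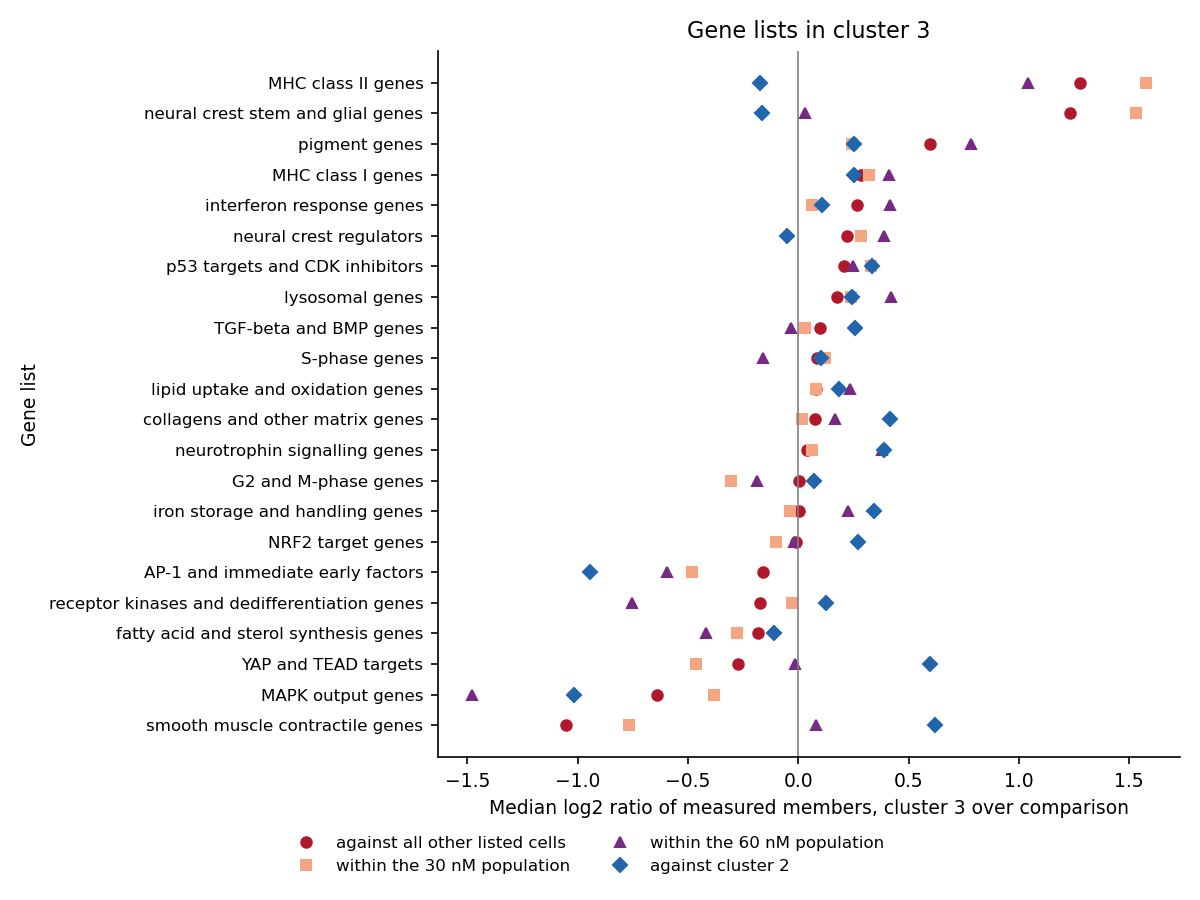
Median log2 ratio of the measured members of each list with 8 or more of them, for cluster 3 against all other listed cells, within the 30 nM and the 60 nM populations, and against cluster 2. Class II and neural crest stem and glial genes lie highest against all other cells, at 1.28 and 1.23, and close to 0 against cluster 2, at -0.17 in both cases.

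The nearest cluster was cluster 2, with a root mean square difference of 0.534 on the log2(CPM + 1) scale. It was made up mostly of 250 nM cells (574 of 900). Cluster 4 followed at 0.733, and clusters 6, 0, 1, 5 and 7 lay between 0.742 and 0.922. Against cluster 2, 353 of 9602 measured genes were at least 2-fold higher in cluster 3 (3.68%) and 246 lower (2.56%). Class II genes (0 of 12 either way) and ZEB2 (338 CPM in cluster 3 and 298 CPM in cluster 2) did not separate the 2 clusters, while CXCL14, NGFR, NOV, CD36 and DCT did. ZFPM2, a cofactor of GATA factors, stood at 401 CPM in cluster 3 and 48.0 CPM in cluster 2, and ANKRD30A at 278 CPM in cluster 3 and 21.1 CPM in cluster 2. Both genes were also high in clusters 4 to 7, at 274 to 788 CPM for ZFPM2 and 83.9 to 620 CPM for ANKRD30A.

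Lower than in cluster 2 were MAPK output genes (1 of 16 higher, 9 lower) and immediate early factors (1 of 17 higher, 7 lower). FOSB, an AP-1 subunit, stood at 138 CPM in cluster 3 and 398 CPM in cluster 2, and JUNB at 257 CPM in cluster 3 and 679 CPM in cluster 2. Of 28 measured matrix genes 11 were at least 2-fold higher in cluster 3 and 1 lower, with sums of 5063 CPM in cluster 3 and 4938 CPM in cluster 2. The higher ones included FN1, fibronectin, at 120 CPM in cluster 3 and 43.4 CPM in cluster 2 and MMP2 at 142 CPM in cluster 3 and 59.1 CPM in cluster 2. FTH1, the heavy chain of ferritin, stood at 13418 CPM in cluster 3 and 4353 CPM in cluster 2. ENPP2, which makes lysophosphatidic acid, was 11.7-fold lower (9.58 to 14.4) at 15.8 CPM in cluster 3 and 185 CPM in cluster 2, and MAOB 22.2-fold lower (11.9 to 46.8).

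Against cluster 4, which shares the 30 and 60 nM populations with cluster 3 (60 and 126 of its 286 cells), 527 of 9815 measured genes were at least 2-fold higher (5.37%) and 435 lower (4.43%). Here members of the crest and class II lists differed. Of the stem and glial genes 9 of 13 were higher and 2 lower. Of the regulators 8 of 21 were higher, SOX10 among them, and of the class II genes 11 of 12. The number of lower regulators is not reported here. NGFR reached the minimum of 10 CPM in cluster 3 alone and was proposed as a marker of the cluster. The counts thus describe the 2 clusters and are no test. Cluster 4 held 7 of 12 contractile genes and 8 of 16 YAP and TEAD targets at a level that left cluster 3 at least 2-fold lower. SUCNR1, the succinate receptor, was 19.9-fold lower (15.3 to 26.3) in cluster 3 at 9.41 CPM, against 187 CPM in cluster 4, and MME, a neutral endopeptidase, stood at 112 CPM in cluster 3 and 1151 CPM in cluster 4.

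Inside the 30 nM population the 373 cluster 3 cells were compared with the 105 cells of other clusters, so that dose was shared. Of 8954 measured genes 387 were at least 2-fold higher (4.32%) and 315 lower (3.52%), and 668 and 196 after thinning every cell to 3038 UMIs. Of the 15 genes highest in cluster 3 against all other cells, 14 were at least 2-fold higher here, and CD36 was at 19.2 CPM in cluster 3 and 11.3 CPM in the others. The 15 were chosen with these same 373 cells, 42.0% of the cluster, so their return here is a description and no test. MMP15, a membrane-anchored metalloproteinase, stood at 47.7 CPM in cluster 3 and 4.35 CPM in the others, and MOXD1 at 274 CPM in cluster 3 and 34.8 CPM in the others. The stem and glial list had 8 of 13 members higher, S100B and ERBB3 now included: S100B stood at 361 CPM in cluster 3 and 87.1 CPM in the others, 4.14-fold (3.37 to 5.14). SOX10 was 2.03-fold higher (1.64 to 2.52), at 185 CPM in cluster 3 and 91.4 CPM in the others. Lower were TLL1, a matrix protease, at 8.55 CPM in cluster 3 and 231 CPM in the others, CADM2, an adhesion molecule, at 19.2 CPM in cluster 3 and 290 CPM in the others, and SUCNR1, with 1 UMI in cluster 3, at 0.356 CPM in cluster 3 and 33.1 CPM in the others (92.9-fold lower, 15.7 to 3764). Keratins KRT7, KRT8 and KRT18 were lower, KRT18 at 259 CPM in cluster 3 and 1124 CPM in the others.

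The 60 nM population was treated the same way after its share of the cluster had been seen, with 260 cells against 646. Of 9481 measured genes 384 were at least 2-fold higher in cluster 3 (4.05%) and 519 lower (5.47%), and 355 and 775 after thinning. All 15 of the highest genes were at least 2-fold higher, which is again no test, since the 260 cells (29.3% of the cluster) took part in their choice. DCT was 51.5-fold higher (41.8 to 64.2), CD36 51.9-fold (24.2 to 133) and NGFR 18.4-fold (10.2 to 35.5). The MAPK output list had 0 of 19 members higher and 11 lower, with a median log2 ratio of -1.48, and DUSP6, a phosphatase that acts on ERK, stood at 91.2 CPM in cluster 3 and 257 CPM in the others. MITF was 2.29-fold higher (2.02 to 2.59) and GPNMB 4.03-fold (3.55 to 4.58), whereas SOX10 was level, at 209 CPM in cluster 3 and 212 CPM in the others. The other 60 nM cells were mainly of cluster 1 (409 of 646), and those at 30 nM mainly of cluster 4 (60 of 105).

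Cluster 3 cells themselves differed between doses. The 60 nM cells of the cluster, set against its 30 nM cells, had 119 of 9335 measured genes at least 2-fold higher (1.27%) and 120 lower (1.29%), and 101 and 184 after thinning. DCT was 3.44-fold higher at 60 nM (3.12 to 3.79), at 789 CPM at 60 nM and 229 CPM at 30 nM, and CITED1 3.36-fold (2.55 to 4.45), at 96.9 CPM at 60 nM and 28.9 CPM at 30 nM. NGFR, at 41.5 CPM at 60 nM and 146 CPM at 30 nM, had a ratio of 0.283 (0.215 to 0.368), and L1CAM was 6.11-fold lower (3.09 to 13.8), at 5.66 CPM at 60 nM and 34.6 CPM at 30 nM. The pigment list had 3 of 7 measured members higher at 60 nM, GPNMB the third, and the stem and glial list 3 of 12 lower, NGFR and L1CAM among them. Regulators of the neural crest (0 of 18) and class II genes (0 of 12) did not pass 2-fold in either direction, and FOXD3 stood at 69.2 CPM at 60 nM and 74.5 CPM at 30 nM. ANGPTL7 and SELENOP, both secreted proteins, and SUCNR1 were higher at 60 nM, SUCNR1 at 25.8 CPM at 60 nM and 0.356 CPM at 30 nM (72.4-fold, 12.3 to 2927). MMP15, OLFML2A, HS6ST3 and TK1 were lower.

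**Figure D5:**
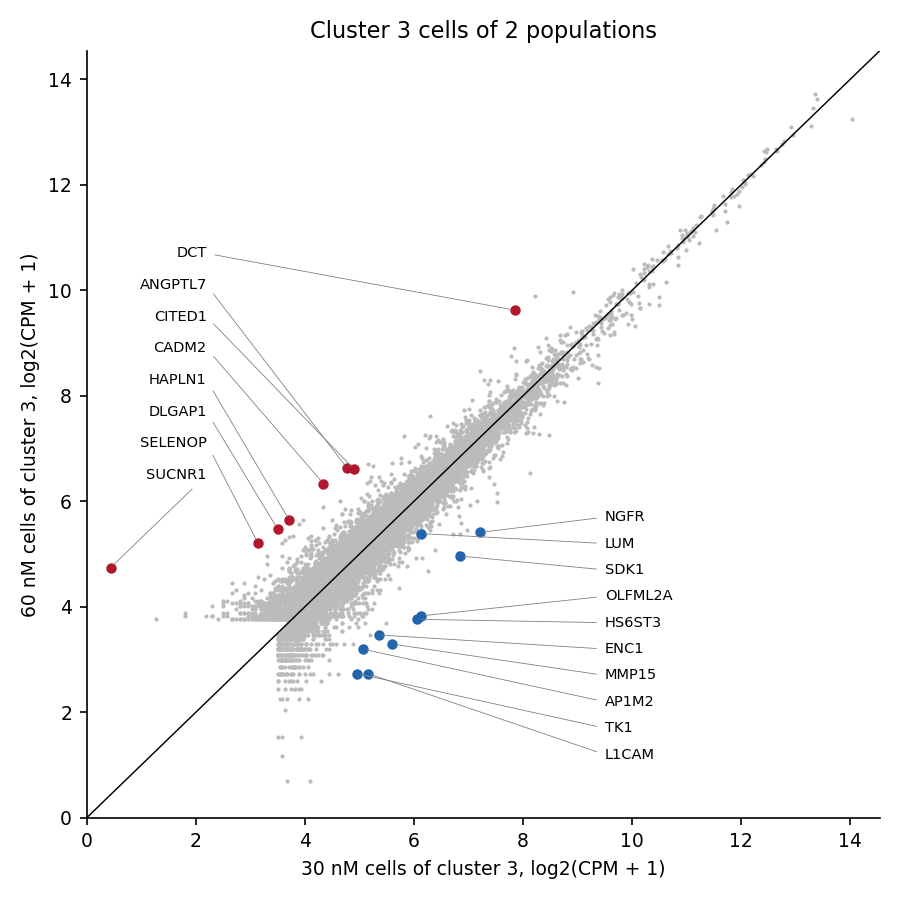
Each point is a measured gene, with its level as log2(CPM + 1) in the 60 nM cells of cluster 3 (vertical) and in its 30 nM cells (horizontal). Red genes are the 8 highest at 60 nM, with DCT at 789 CPM at 60 nM and 229 CPM at 30 nM, and blue genes the 8 lowest together with NGFR, at 41.5 CPM at 60 nM and 146 CPM at 30 nM, and LUM. The line marks equal levels.

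At 500 nM and 1 µM the cluster held 52 and 50 cells, and their 449134 and 444546 UMIs limit what can be seen. At 500 nM 67 of 7215 measured genes were at least 2-fold higher than in 30 nM cluster 3 cells (0.929%) and 414 lower (5.74%), and at 1 µM 133 of 7253 higher (1.83%) and 464 lower (6.40%). With a minimum of 50 CPM the order turned, with 58 higher and 38 lower at 500 nM and 113 higher and 67 lower at 1 µM. After thinning 26 were higher and 742 lower at 500 nM, and 43 higher and 885 lower at 1 µM. The minimum of UMIs asks for a higher CPM in these small groups than in the 30 nM cells. Which direction held more genes thus depended on the minimum, and a predominant loss cannot be read from the counts. Higher at both doses were TRPC4, a calcium channel, at 234 CPM at 500 nM and 261 CPM at 1 µM, against 39.9 CPM at 30 nM, and FOXP1, a transcription factor, at 167 CPM at 500 nM and 245 CPM at 1 µM, against 31.7 CPM at 30 nM. ASNS, asparagine synthetase, stood at 71.2 CPM at 500 nM and 87.7 CPM at 1 µM, against 18.2 CPM at 30 nM. NGFR was at 60.1 CPM at 500 nM and 24.7 CPM at 1 µM, against 146 CPM at 30 nM, with ratios of 0.411 (0.267 to 0.606) and 0.169 (0.0837 to 0.306). DCT was at 269 CPM at 500 nM and 400 CPM at 1 µM, against 229 CPM at 30 nM. Both comparisons share the 30 nM cells.

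Outside cluster 3 TRPC4 stood at 482 CPM at 500 nM and 508 CPM at 1 µM, against 209 CPM at 30 nM. ZFPM2 in cluster 3 lay between 276 and 505 CPM in all 9 populations, while in the other clusters it was 29.6 CPM in untreated cells and 510 CPM at 30 nM.

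The 15 untreated cells of cluster 3 stand apart from the other untreated cells. Their median was 15793 UMIs, against 8721 in the untreated cells of other clusters, and 2 of the 15 had over 2 times the median of all untreated cells. TAGLN stood at 922 CPM, against 33.6 CPM in the other untreated cells, TRPC4 in cluster 3 at 298 against 15.2 CPM in the others, ANKRD30A in cluster 3 at 294 against 14.7 CPM in the others, and FTH1 in cluster 3 at 9716 against 2793 CPM in the others. FOXD3 had 1 UMI, CXCL14, CRYAB and OTOGL had 0, and DCT was at 62.4 CPM. These cells thus held genes that were otherwise low in untreated cells. Whether their barcodes hold more than 1 cell was not tested.

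Cells outside the cell table entered no cluster, and their population labels come from the tags, so they show the 30 nM population in cells that the clustering did not use. There were 213 such cells at 30 nM and 3233 in the other populations, 1569 of them untreated. Of 9720 measured genes 108 were at least 2-fold higher in the 30 nM cells (1.11%) and 200 lower (2.06%), and 105 and 488 after thinning. Of the 15 genes highest in cluster 3, 11 were measured and 9 were at least 2-fold higher: NGFR at 45.8 CPM at 30 nM against 4.43 CPM in the other populations (10.3-fold, 8.21 to 13.0), and likewise TMEM47 at 47.1 against 9.24 CPM, HDAC9 at 123 against 30.5 CPM, and CRYAB, OTOGL, NKAIN3, FOXD3, TMPRSS5 and OLFML2A. DCT stood at 26.5 CPM at 30 nM against 14.2 CPM in the other populations, a ratio of 1.86 (1.45 to 2.35), and NOV differed 2.03-fold (1.52 to 2.67) but under 2-fold on the log2(CPM + 1) scale. CXCL14 stood at 3.27 CPM in both. CXCL14, CITED1, CD36 and SCUBE3 did not count as measured. Of the 9 higher genes only HDAC9 and TMPRSS5 (30.7 against 14.2 CPM) reached the minimum of 10 CPM in the other populations too. The 15 were chosen in part with cells of the same 30 nM culture, so the count is a description and no test. All 15 of the lowest genes were at least 2-fold lower. The other populations were pooled by their cells, 1569 untreated and 545 of 60 nM among them, which are the largest populations of clusters 0 and 1. Whether these 15 genes were lower at 30 nM than in each other population was not tested.

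MAPK output genes had 0 of 18 higher and 7 lower. Their sum at 30 nM was 1349 CPM, against 2544 CPM in untreated cells and 2212 to 2890 CPM at 60 to 250 nM, and near the 1260 to 1442 CPM of 500 nM to 4 µM. Of the other lists, stem and glial genes had 4 of 14 measured members higher (NGFR, PMP22, L1CAM and CRYAB) and 1 lower, and the small leucine-rich proteoglycans 3 of 4 higher, with LUM at 83.4 CPM at 30 nM against 12.4 CPM in the other populations. Of the higher stem and glial genes at least NGFR and CRYAB reached the minimum of 10 CPM at 30 nM alone. Class II genes had 0 of 11 at 2-fold either way, with a sum of 2379 CPM at 30 nM against 2115 CPM in the other populations. In these cells at 30 nM the class II sum and DCT lay below their levels in cluster 3 cells at 30 nM, which were 5907 CPM and 229 CPM. PRR16, DKK1, a secreted inhibitor of Wnt signalling, and PDE5A were among the highest genes, DKK1 at 340 CPM at 30 nM against 54.7 CPM in the other populations. FTH1 stood at 18036 CPM at 30 nM, against 4792 CPM in untreated cells, 4129 to 5231 CPM at 60 to 250 nM and 13831 to 19531 CPM from 500 nM to 4 µM. For NGFR each of the other populations was lower than 30 nM, at 1.11 to 6.54 CPM, whereas DCT was higher at 125 and 500 nM, at 68.1 and 35.8 CPM.

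The genes whose levels followed NGFR most closely were sought over 24 groups of at least 50 cells of 1 cluster and 1 population, 4 of which belong to cluster 3. The highest Pearson correlations of log2(CPM + 1) were those of PMP22 (0.88), CRYAB (0.87), DCT (0.86), ARHGAP24 (0.85) and FHDC1 (0.85). The groups share libraries and in part cells of the same culture, so these values are descriptions. ARHGAP24, which acts on small GTPases, stood at 320 CPM in cluster 3 and 59.1 CPM in the other cells, and at 200 to 459 CPM in cluster 3 cells of the 8 adapted populations. By chromosome, the median log2 ratio of cluster 3 against the other listed cells ran from -0.10 on chromosome 18 to 0.12 on chromosome 11.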

How the data were processed

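A375 cells were read as pooled 3′ single-cell libraries, processed with Cell Ranger 7.0.0 on GRCh38, per the submitters' processing notes. The deposited A375 table holds raw UMI counts of 15945 genes in 8505 cells, summing to 87053189, and each gene is seen in at least 9 cells. The authors' cell table gives population, cluster at resolution 0.4 and percent of mitochondrial UMIs, a percent recomputed from the deposited counts to within 0.001. How its 5059 cells were chosen is not given in the sources used here. The population name T05 was matched to the 500 nM sample. The PC9 line of the same study is not analysed here beyond a count of shared barcodes. Gene positions are GENCODE v29 by symbol (99.5% placed).

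Counts were summed per group of cells and divided by the group's total (CPM). Ratios are on the log2(CPM + 1) scale, folds are ratios of CPM with exact binomial intervals, levels have exact Poisson intervals and shares Clopper-Pearson intervals, at 95%. A gene was measured at 10 CPM and 20 UMIs on the higher side and called at 2-fold. The floor is 3 counts. No model was fitted: each population is 1 culture, cells are not replicates, and the clusters were made from the same counts. Doublets were not called and no cell was removed. Genes named are NGFR, DCT, LUM, MITF, SOX10 and BRAF, the 15 highest and 15 lowest against all other cells and the 8 and 8 of every other comparison at 25 CPM or more, up to 4 members of each list, and the 5 genes most like NGFR. Clone-named, antisense, LINC and mitochondrially encoded genes were not named. Other members of lists are named where a list's count is given, chosen after their values were seen. The cluster, its markers and the lists were chosen with earlier results of these data known. The ratio and call steps were tested on simulated data. Python 3.11.15, numpy 2.4.6, scipy 1.17.1, pandas 2.3.3, matplotlib 3.10.9, R 4.3.3 and edgeR 4.0.16 (for TMM factors alone) were used. Alternatives were other pseudocounts, minima, thresholds, totals, thinning, weights and groups of cells. Some genes of the lists are not reported here by name.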

Additional observations from a re-analysis of the deposited data

How the results depend on the processing

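No paired analysis was possible because each population is 1 culture, the 2 sequencing runs are not told apart in the cell names, and the results come from no test. No log2 ratio of a named gene past 2-fold changed sign under the alternatives for which it was recomputed, and genes not named were not checked for this. Of the recomputed log2 ratios of named genes 1992 stayed within the counting interval and 638 left it, not counting the limit of 20% mitochondrial UMIs, which removed 0 listed cells. Counts of genes at least 2-fold apart are given as higher and lower for cluster 3 against all other listed cells, within 30 nM, against cluster 2, against cluster 4, for 60 nM, 500 nM and 1 µM against 30 nM, for unlisted 30 nM cells, and within 60 nM, the last chosen after seeing the data. At 50 CPM or more the counts began 131 and 85, 162 and 141, 121 and 137, 255 and 183. They went on with 30 and 25, 58 and 38, 113 and 67, 38 and 98, and 173 and 233. At 3-fold they were 105 and 33, 149 and 93, 160 and 86, 283 and 152, 23 and 24, 16 and 124, 33 and 125, 33 and 37, and 154 and 199. With no filter they were 278 lower, 986 and 1002, 693 higher, 874 and 806, 557 and 538, 884 and 1609, 1005 and 1739, 206 and 356, and 795 and 961. Under a mean of per-cell CPM the counts that moved were 363 lower against all other cells, 113 higher at 500 nM and 163 higher in unlisted cells. With thinned cells they were 334 lower against all other cells, 668 and 196 within 30 nM, 184 lower at 60 nM, 26 and 742 at 500 nM, 43 and 885 at 1 µM and 488 lower in unlisted cells. With a pseudocount of 5 CPM they were 59 and 62 at 60 nM, 221 lower at 500 nM and 254 lower at 1 µM. Against all other cells the lower count was 61 with populations weighted equally, 403 for 30 nM cells alone and 114 without them, the last chosen after seeing the data. Without cells over 2 times their population's median UMIs the unlisted cells gave 165 and 390. Without thinning, cells with a UMI were 31.8% and 1.34% for NGFR, 54.2% and 5.23% for DCT and 15.9% and 14.2% for LUM. The cause of these changes was not tested. Depth limits the cells of the cluster outside 30 and 60 nM, with 15 to 52 cells and 150232 to 489090 UMIs per population.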
